A study of Arabidopsis thaliana with 22 samples.

Results

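In Arabidopsis thaliana, 203 genomic regions carried trimethylation of histone H3 lysine 4 (H3K4me3) in every library of wild-type leaf and wild-type inflorescence, and in no library of cauliflower apices. They were chosen on windows of 200 bp over the 5 nuclear chromosomes. A window was kept when islands, the stretches called enriched by the authors, covered it in all 4 leaf and inflorescence H3K4me3 tables and in none of the 4 apex tables. Adjacent windows were joined, and runs of at least 400 bp were kept as regions. Of 127726 windows with H3K4me3 in any library, 69332 had it in all 4 leaf and inflorescence libraries, and 968 of these (1.396%) had it in no apex library. The 203 regions hold 766 of the 968 windows and 153.2 kb, out of 17270 regions of the same minimum length with H3K4me3 in any library. For comparison, 288 regions had the mark in all 4 apex libraries and in no leaf or inflorescence library, and 13472 had it in all 8.

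H3K4me3 is placed around the start of genes that are transcribed, and it is common on genes that a tissue uses steadily. H3K27me3, set by Polycomb repressive complex 2, covers developmental and conditional genes that are kept silent, and its domains often span a whole gene. Shoot apical meristems are known for Polycomb control of differentiation genes, and leaves for strong activity of the genes of photosynthesis and photorespiration, the pathway that recycles the product of Rubisco's reaction with oxygen.

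Both marks were measured by chromatin immunoprecipitation and sequencing (ChIP-seq) in 4 stages, with 2 libraries per stage and mark. Leaf means rosette leaves of flowering wild-type Landsberg erecta plants, and inflorescence means main inflorescences of the same wild type with the flowers older than stage 12 taken off. Apex t0 means untreated apices of plants with the genotype ap1-1 cal-1 that carry 35S::AP1:GR. These mutants lack the redundant floral regulators AP1 and CAL and pile up meristems in place of flowers. Apex t2 means the same plants 2 days after 10 µM dexamethasone, which lets the AP1-receptor fusion enter the nucleus. The transgene is driven by the constitutive 35S promoter, so the fusion is not limited to the cells that normally express AP1, and the apices of both times carry the mutations and the transgene. Apices therefore differ from leaf and inflorescence in genotype, in the control library used by the authors and in the amount of chromatin as well as in tissue, and these cannot be told apart.

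Libraries held 14589 to 16214 islands with 6635471 to 23673881 reads in them for H3K4me3, and 6345 to 8048 islands with 3779918 to 19379225 reads for H3K27me3. An absent island means that enrichment did not reach the authors' threshold, not that the mark was absent. Of 12 meristem marker genes, H3K4me3 lay on 10 to 11 in the apex libraries, on 1 in each leaf library and on 7 to 9 in the inflorescence. Of 10 photosynthetic markers, 9 to 10 carried it in the apices and 10 in each other library, with a summed level of 501.3 to 587.1 RPM (island reads in the genes per 1000000 in all genes) in apices, 862.1 to 895.6 in inflorescence and 954.0 to 1179.2 in leaf. RBCS1B and RCA are among these markers and carry regions described here. Their lower apex level follows in part from the rule, and so does part of the gap in the sum. Floral organ markers (8 genes) had H3K4me3 on 0 in leaf, 0 to 5 in the apices and 5 to 6 in the inflorescence. The stomatal list (5 genes) had 0 to 2 marked genes in every stage, with 0 to 38.3 RPM in leaf, 0 to 32.8 in apices and 0 to 85.5 in inflorescence, and the phloem list (2 genes) had 1 in leaf, 0 in apices and 0 to 1 in inflorescence. H3K4me3 islands covered at least 3349 bp of AP1 in each apex library, 2749 bp in each inflorescence library and 0 bp in leaf, and reads of the mutant gene and of the transgene could not be separated. In a bulk tissue, fewer cells with a mark and less of the mark per cell cannot be told apart.

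The regions were short. Their width ran from 400 to 2800 bp with a median of 600 bp, and 74 of them were exactly 400 bp and 51 were 1000 bp or more. Of the 203, 80 directly abutted an H3K4me3 island of at least 1 apex library, 29 of them in 1 apex library and 26 in all 4. Another 14 lay less than 1 kb from an apex island, 109 lay 1 kb or more away and 23 at least 5 kb away. The median width was 400 bp for those that abutted and 800 bp for those 1 kb or more away. Runs of a single 200 bp window, just outside the length limit, numbered 202, and 200 of these abutted an apex island, against 49 of the 74 regions of 400 bp just inside it. On the side of the apex libraries, 87 runs of at least 400 bp had the island in all 4 leaf and inflorescence libraries and in exactly 1 apex library. Chromosomes 1 to 5 held 70, 21, 54, 19 and 39 regions.

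**Figure D1:**
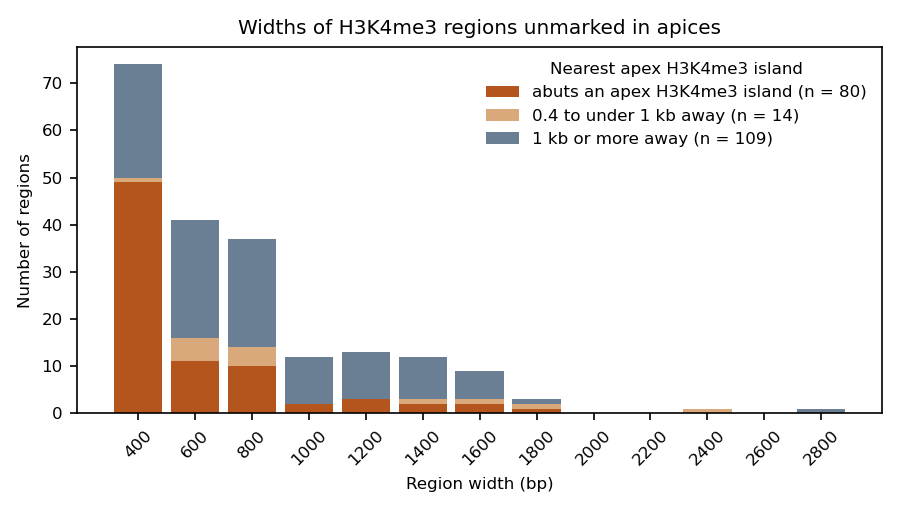
Number of regions (vertical axis) by width in bp (horizontal axis), with colours for the distance to the nearest apex H3K4me3 island. Most of the 74 regions of 400 bp abut an apex island, and most regions of 600 bp or more lie 1 kb or more from one.

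At least 200 bp of a region fell on 188 protein-coding genes, 96 of them with a symbol. They are 0.685% of all 27444 protein-coding genes and 1.25% of the 15010 genes with H3K4me3 in all 4 leaf and inflorescence libraries. The genes were of 2 kinds. In 105 of them islands covered under 200 bp of the gene body in every apex library, and in 100 of these 0 bp. The 105 made up all but 1 of the 106 genes marked in every leaf and inflorescence library and in no apex library. In 62 genes all 4 apex libraries still had H3K4me3 elsewhere in the body, over a mean of 36.8% of its length against 65.0% in leaf and inflorescence, and 21 genes were marked in 1 to 3 apex libraries.

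Genes of photosynthesis mostly belonged to the second kind. All 24 listed photosynthesis genes were marked in leaf and inflorescence, and 23 of them had H3K4me3 in all 4 apex libraries. Against 1.25% of all genes marked in leaf and inflorescence, regions lay on 4 of the 24. These are RBCS1B, a small subunit of Rubisco, RCA, the Rubisco activase that keeps the enzyme working, GAPB, a chloroplast glyceraldehyde-3-phosphate dehydrogenase of the Calvin cycle, and LHCA2, an antenna protein of photosystem I. At RCA (region chr2:16571401-16572400, TAIR10 as all positions here) the islands had a density of 80.4 and 65.4 RPM per kb in leaf and 58.3 and 53.1 in inflorescence, where RPM per kb is the read density of the whole island in a library scaled to 1000000 island reads. The apices kept islands over 40.7% of the RCA body in each of the 4 libraries, against 74.7 to 96.9% in leaf and inflorescence. GAPB kept 41.2 to 49.1% against 72.7 to 88.4%, and LHCA2 41.4% against 62.1 to 93.2%. RBCS1B kept 27.9 to 46.4% against 83.6 to 98.4%, and since near-identical Rubisco genes are its neighbours, its reads are uncertain. In each of the 4 genes the lowest leaf or inflorescence library lay above the highest apex library, which follows in part from the rule that chose them.

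Photorespiration had regions on 4 of 8 listed genes, against 1.25% of all genes marked in leaf and inflorescence, a count given without a test. All 8 were marked in leaf and inflorescence, and 7 had H3K4me3 in all 4 apex libraries. GLDP1, the P-protein of mitochondrial glycine decarboxylase, had a region of 1800 bp (chr4:15927801-15929600), with island densities of 78.0 and 63.0 in leaf and 63.9 and 48.6 in inflorescence. Its apex islands covered 33.5 to 37.7% of the body against 75.5 to 79.6%. HPR, the peroxisomal hydroxypyruvate reductase, kept 35.0 to 41.9% against 55.9 to 76.9%, and GOX1, a glycolate oxidase with a tandem copy beside it whose reads could be shared, kept 42.3 to 49.4% against 70.9 to 99.6%. AGT, the peroxisomal serine-glyoxylate aminotransferase, was different: its region of 1200 bp (chr2:5539401-5540600) reached island densities of 63.4 and 57.1 in leaf and 48.4 and 42.8 in inflorescence, and the apices had islands over 0 to 21.9% of the body, in 1 of 4 libraries. Outside the lists, and chosen after the values were seen, regions also lay on GGT1, which makes glycine from glyoxylate, and on GLU1, a ferredoxin-dependent glutamate synthase that reassimilates the ammonium released in photorespiration. Further chloroplast genes named in the same way are PSBO2 of photosystem II, FNR2, a ferredoxin-NADP reductase, LHCB2.3, a light-harvesting protein, and PnsB1 and CRR7, which belong to the chloroplast NADH dehydrogenase-like complex or its assembly.

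**Figure D2:**
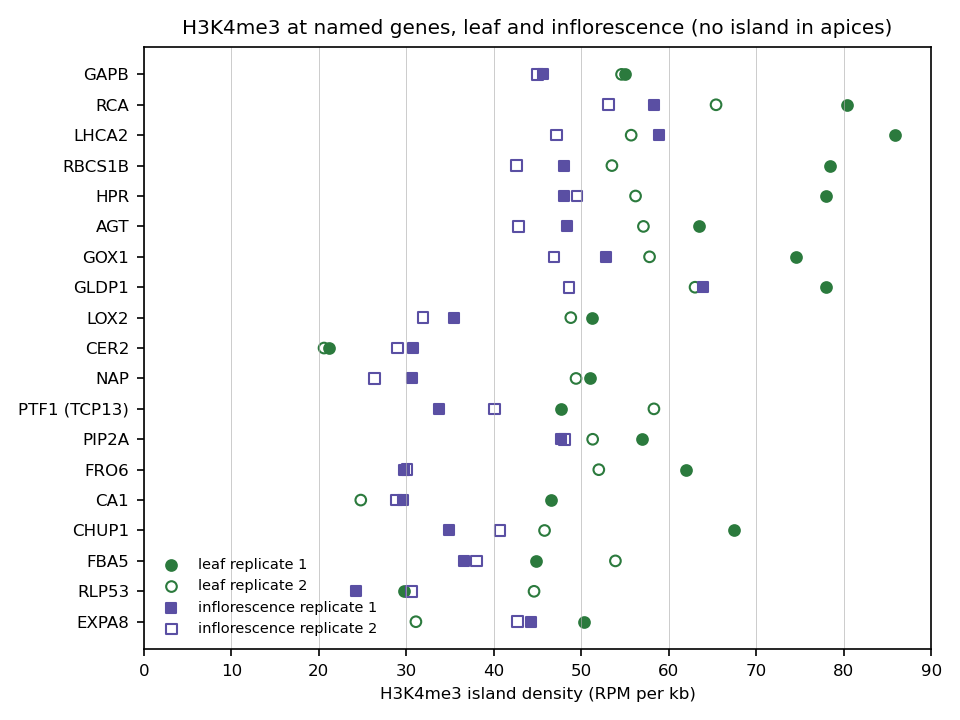
Density of the H3K4me3 island over each named region (horizontal axis, RPM per kb) in the 2 leaf and 2 inflorescence libraries, for genes from the lists and for regions of at least 1600 bp with a symbol; each point is 1 library. Leaf points lie to the right of inflorescence points at most genes, and CER2 is an exception with 21.2 and 20.6 in leaf against 30.8 and 29.0 in inflorescence.

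Some of the longest regions lay on genes that had no apex island at all. The longest, 2800 bp at chr3:16525401-16528200, lay on LOX2, the chloroplast lipoxygenase of jasmonate synthesis, and the nearest apex island was 19400 bp away. LOX2 islands had densities of 51.2 and 48.8 in leaf and 35.5 and 31.9 in inflorescence. FRO6, a ferric reductase gene, followed with 2400 bp (chr5:20202201-20204600) and densities of 62.0 and 52.0 against 29.7 and 30.1. Its apex islands covered 16.9% of the body in apex t0 replicate 2 and 0% in the other 3 apex libraries. A second ferric reductase gene beside it, FRO7, which serves iron uptake into chloroplasts, had a region of 800 bp. CA1, a chloroplast carbonic anhydrase, had 1800 bp at chr3:196201-198000, with 46.5 and 24.8 in leaf and 29.6 and 28.9 in inflorescence, so that leaf replicate 2 lay below both inflorescence libraries. AT3G21670 and GLDP1 also had 1800 bp. The 9 regions of 1600 bp lay on EXPA8, an expansin that loosens cell walls, FBA5, a fructose-bisphosphate aldolase, CHUP1, an actin-binding protein of chloroplast positioning, the receptor-like protein gene RLP53 with AT5G27065, the pair AT1G17600 and AT1G17610, AT1G06645, AT1G78230 and AT5G22310, and at chr1:22295801-22297400 on no protein-coding gene.

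Single members of other lists carried a region, and many lists had none. NAP, a NAC transcription factor of leaf senescence, was the only one of 6 senescence genes, CER2, which lengthens wax precursors, 1 of 5 cuticle wax genes, PTF1, the class II TCP factor also called TCP13, 1 of 8, PIP2A, an aquaporin, 1 of 7 water and ion transport genes, and LOX2 1 of 18 jasmonate and defence genes. None of 15 light signalling and clock genes, 13 flowering repressors, 9 flavonoid genes, 16 meristem genes, 10 floral organ genes, 6 cell division genes, 9 gibberellin oxidases, 5 stomatal or 2 phloem genes had one. A region needs H3K4me3 in leaf and inflorescence first, which held for 12 of the clock genes and 7 of the flowering repressors but for at most 3 genes of each of the other lists with none. Of all 15010 genes so marked 1.25% had a region. With lists this short, having none is near that share and is no result about these genes.

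The islands that held the regions ranked below the middle in leaf and lower still in the inflorescence. Ranked by the authors' fold over control within each library, their median percentile was 37.9 and 43.2 among all islands of the 2 leaf libraries, and 19.2 and 16.5 in the 2 inflorescence libraries. In the inflorescence, 116 and 137 of the 203 lay under percentile 25, against 70 and 60 in leaf. Their median width was 1400 and 1600 bp in leaf and 1400 and 1200 bp in inflorescence, against 1000 to 1200 bp for all islands. Density was lower in the inflorescence than in the leaf library of the same replicate number at 171 and at 142 of the 203 regions, and at 133 regions in both. The same count over all regions was not made. In replicate 1 the median density was 53.7 in leaf and 37.8 in inflorescence for these islands, and 59.9 and 55.8 for all islands. In replicate 2 it was 46.3 and 37.8 for these islands, and 49.4 and 54.1 for all.

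Genes with a symbol and a high mean percentile over the 4 libraries included LpxC2 (84.3), described with its cluster, BBX14 (81.9), a B-box zinc finger factor, CP5 (75.3), LHCA2 (71.1), HPL1 (69.4), a hydroperoxide lyase that makes leaf volatiles from lipids, CRB (67.8), a chloroplast RNA-binding protein, and BBD1 (65.1). Apart from LpxC2 each of their regions, the part unmarked in the apices, was 400 bp long, within leaf and inflorescence islands of 400 to 4200 bp. Of these genes LpxC2 and HPL1 lay away from an apex island, at 5000 and 1400 bp, and the others abutted one.

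The rule asked for H3K4me3 in both leaf and inflorescence, not for a difference between them. Inflorescence was compared with leaf over 17588 genes with limma on log2(RPM + 1), adjusted by the Benjamini-Hochberg method. The libraries are those the rule used, so the test is not independent of the choice of regions. Genes were tested when both replicates of a stage had the mark, which 124 of the 188 members met through leaf or inflorescence alone. Of the 188 member genes, 7 (3.72%) carried less H3K4me3 in the inflorescence at adjusted p under 0.05, against 1.92% of all genes tested, and 0 carried more, against 2.14% of all. Each of these 7 genes had islands in all 8 libraries. Members with no apex island had larger standard errors in this shared fit. An example is AT3G45260, with a log2 fold change of -2.38, a standard error of 0.64 and limma adjusted p = 0.144. For such members a call was hard to reach, so the count of 7 says little about them. At unadjusted p under 0.05, 39 members were lower and 2 higher, against 1222 (6.95%) and 1303 (7.41%) of the 17588 genes tested. The fold change was negative for 154 of 188 members (median -0.56 on the log2 scale), and for 48.7% of all genes tested (median 0). In the pair of replicate 1 libraries 156 members were lower in inflorescence and in the pair of replicate 2 libraries 150, against 49.9% and 53.2% of the genes marked in all 4 leaf and inflorescence libraries.

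RLP54, a receptor-like protein gene, had 83.0 and 109.9 RPM in leaf, 23.5 and 23.0 at apex t0, 30.6 and 30.1 at apex t2 and 43.9 and 47.8 in inflorescence. The 2 leaf values lie above both inflorescence values (log2 fold change -1.05 ± 0.17, SE; limma adjusted p = 0.0243). FRO7 had 179.1 and 194.9 RPM in leaf and 98.8 and 112.4 in inflorescence, with 42.5 to 50.6 in the apices (-0.82 ± 0.13; limma adjusted p = 0.0236). RPS6, a disease resistance gene, had 122.5 and 124.2 RPM in leaf against 84.8 and 71.7 (-0.66 ± 0.11; limma adjusted p = 0.0272), and ACD32.1, an alpha-crystallin domain protein gene, 122.1 and 127.7 against 80.3 and 86.7 (-0.58 ± 0.10; limma adjusted p = 0.0328). The other 3 were AT5G55970, AT3G48200 and AT2G34510, with log2 fold changes of -0.97, -0.70 and -0.54. None of the 8 listed photosynthesis and photorespiration genes with a region passed, and GLDP1 had -0.40 (limma adjusted p = 0.464) and RCA -0.55 (limma adjusted p = 0.304). With the replicate number as a block LHCA2 passed with -0.75 (limma adjusted p = 0.049, and 0.384 without the block), as did GGT1 from outside the lists with -0.74 (limma adjusted p = 0.0473, and 0.207 without).

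These calls were unstable. Over all genes tested, 8 to 340 were lower in the inflorescence with 1 library left out. The number of members called lower was 2 without leaf replicate 1, 11 without leaf replicate 2, 2 without either apex t0 library, 0 without either apex t2 library, 2 without inflorescence replicate 1 and 1 without inflorescence replicate 2, and each of the 7 genes lost the call without at least 2 libraries. With the replicate number as a block it was 11, and with only the 4 leaf and inflorescence libraries in the fit it was 0, with 66 members lower and 3 higher at unadjusted p under 0.05, against 963 (5.48%) and 737 (4.19%) of the 17588 genes.

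H3K27me3 was then measured over the same regions, a mark the rule did not use. An H3K27me3 island covered at least 200 bp of 17.24 and 19.21% of the 203 regions in the leaf libraries, 35.96 and 41.38% at apex t0, 36.95 and 41.38% at apex t2, and 26.11 and 36.95% in the inflorescence. Every apex library was above both leaf libraries, while inflorescence replicate 2 equalled apex t2 replicate 1 and exceeded apex t0 replicate 1. The mean over apices was 38.92% against 24.88% over leaf and inflorescence, a difference of 14.04 percentage points (p = 0.0857, exact two-sided permutation test over 4 against 4 libraries, smallest possible p 0.0286). This did not pass the threshold of 0.05. Within replicate 1 the difference was 14.78 points and within replicate 2 13.3 points, and with permutation inside replicate numbers p was 0.0556, the smallest the design allows (exact, 36 splits).

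The difference was larger against leaf than against the inflorescence, a contrast between the 2 that was not itself tested. Without the inflorescence libraries it was 20.69 points (p = 0.0667, exact permutation, the smallest of 15 splits), and without the leaf libraries 7.39 points (p = 0.2667, exact permutation). Without inflorescence replicate 2 it was 18.06 points (p = 0.0286, exact permutation, the smallest of 35 splits). The stages had means of 18.23% ± 1.39 (SD, n = 2) in leaf, 38.67% ± 3.83 at apex t0, 39.17% ± 3.13 at apex t2 and 31.53% ± 7.67 in the inflorescence. Apex t0 and t2 lay closer to each other than the replicates of either lay to one another.

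The regions with H3K4me3 in all 8 libraries had H3K27me3 at 5.14 to 7.25% in every library. When their share was subtracted library by library, the difference between apices and the other stages was 13.38 points (p = 0.0857, exact permutation test). Regions with H3K4me3 in the apices alone carried H3K27me3 at 35.76 to 45.49%, with 39.24 and 45.49% in leaf and 36.81 to 40.28% in the apices. High H3K27me3 in the apices was thus shared by both sets of changing regions, while in leaf the regions described here had the lower share of the 2.

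**Figure D3:**
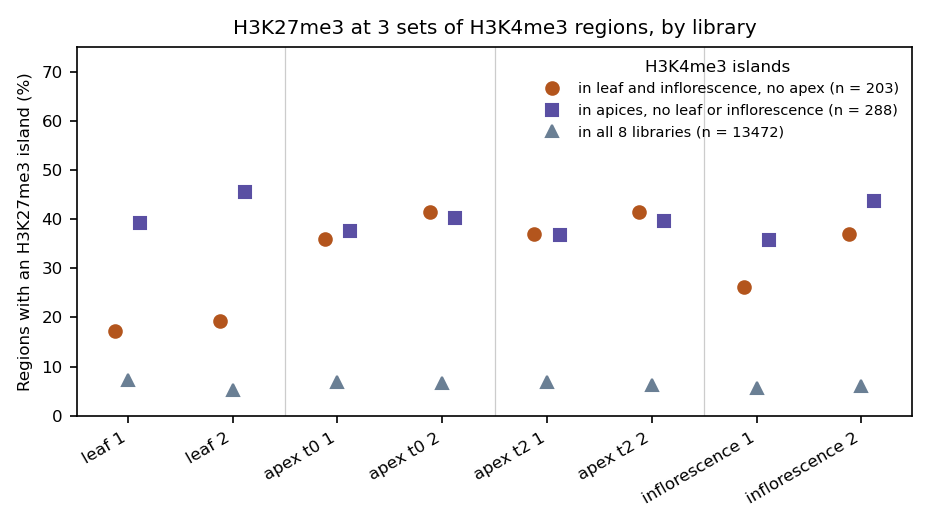
Percentage of regions with an H3K27me3 island over at least 200 bp (vertical axis) in each of the 8 libraries (horizontal axis, stage and replicate number), for 3 sets of H3K4me3 regions. The 203 regions unmarked in apices lie at 17.24 and 19.21% in leaf and at 35.96 to 41.38% in the apices, and the 13472 regions marked everywhere stay at 5.14 to 7.25%.

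The 203 regions took several forms of H3K27me3. In 110 no library had an island, and in 24 all 8 had one, which is 54.2 and 11.8% against 87 and 2.49% of the regions with H3K4me3 in all 8 libraries. In 28 regions (13.8%) all 4 apex libraries and no leaf library had H3K27me3, against 1.77% of the regions with H3K4me3 in all 8. Of these 28, 10 had it in both inflorescence libraries, 14 in one and 4 in neither. The reverse was rare, with 2 regions (1.0%, against 0.579%) marked in both leaf libraries and no apex library, and 0 in all leaf and inflorescence libraries and no apex library. Regions far from apex H3K4me3 had more: 44.0 to 47.7% of the 109 regions 1 kb or more from an apex island carried H3K27me3 in the apices and 23.9 to 25.7% in leaf, against 23.8 to 31.2% and 11.2 to 13.8% of the 80 that abutted one.

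Counted by gene, all 4 apex libraries had H3K27me3 on 55 of the 105 genes (52.4%) with under 200 bp of H3K4me3 in every apex library, on 15 of the 62 (24.2%) that kept H3K4me3 elsewhere, and on 7.2% of all genes marked in leaf and inflorescence. All 4 apex libraries and no leaf library had it on 20 of the 105 genes and on 8 of the 62. Among the 15010 genes marked in leaf and inflorescence, 347 had this pattern. No H3K27me3 in any library was found on 39 of the 105, on 43 of the 62 and on 12641 of the 15010.

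**Figure D4:**
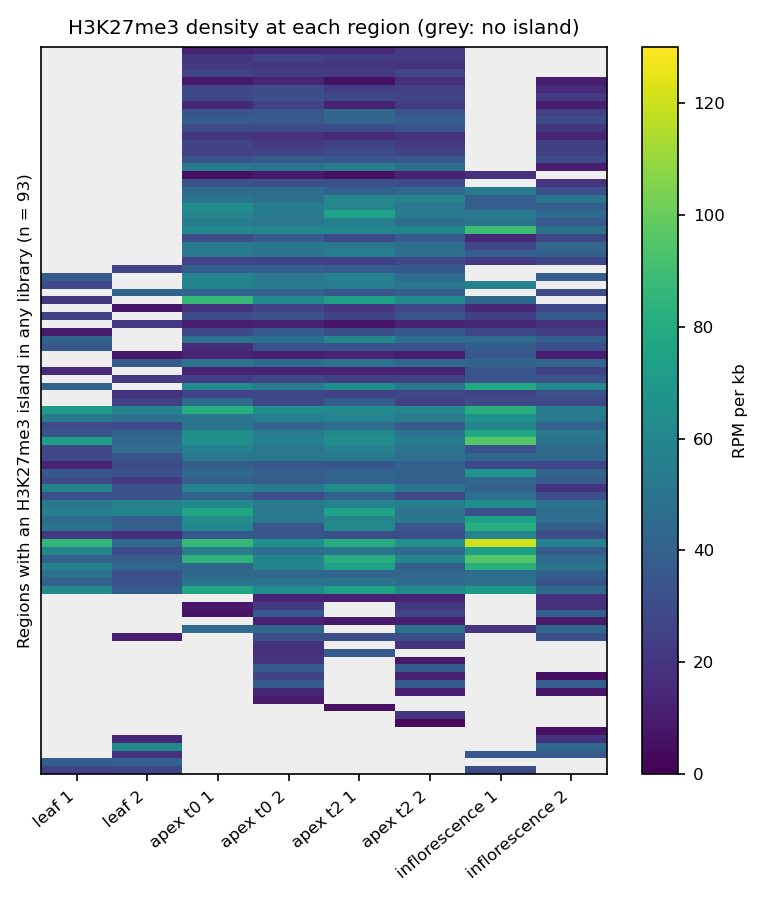
H3K27me3 density (colour, RPM per kb averaged over the region; grey means no island) for the 93 regions with an H3K27me3 island in any library, 1 row per region, in the 8 libraries. Rows are ordered by the number of apex, leaf and inflorescence libraries with an island; the 28 rows at the top are filled in the apices and empty in both leaf libraries.

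The 4 regions with H3K27me3 in all apex libraries and none of leaf or inflorescence were small. They lay on AT1G57980 (800 bp, chr1:21439801-21440600), with densities of 21.1, 25, 22.6 and 22.0 in the 4 apex libraries from t0 to t2, on AT2G21830 (600 bp, 19.1 to 21.5), on AT2G34510 (600 bp, 22.5 to 27.9) and on BGAL2, a beta-galactosidase gene (600 bp, 11.6 to 21.7). Such regions made up 2.0% of the 203 and 0.46% of those with H3K4me3 in all 8 libraries. CA1 was close to this form, with 30.5 to 33.2 in the apices, 0 in leaf, and 0 and 19.6 in the inflorescence. LOX2 had 18.3 to 28.1 in the apices, 0 and 7.8 in leaf, and 14.8 and 28.0 in the inflorescence, so that its inflorescence overlapped the apices. Outside its region the BGAL2 gene did carry H3K27me3 in inflorescence replicate 2, with 90.6 RPM over 45% of the gene body.

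Regions with H3K27me3 in all 8 libraries carried both marks in leaf and inflorescence. The longest lay on MYB28, the main activator of aliphatic glucosinolate synthesis, with 49.5 and 39.5 in leaf, 34.5 to 61.2 in the apices and 81.1 and 38.2 in the inflorescence, so that no stage stood apart. The same held for CORI3, a coronatine-induced gene, with 52.1 and 56.8 in leaf, 52.8 to 62.1 in the apices and 64.1 and 49.1 in the inflorescence. EXPA5, an expansin, had 30.9 and 28.8 in leaf, below 37.8 to 49.9 in the apices and 59.0 and 41.1 in the inflorescence. AT1G22910 and LOV1, a NAC gene, were next with 800 bp each, tied with 5 other regions. Of the photosynthesis and photorespiration genes, GAPB, RCA, LHCA2, GLDP1, HPR and GOX1 had no H3K27me3 island in any library over the region. AGT had 35.3 and 26.8 in apex replicates 2, 7.1 and 0 in apex replicates 1, 0 in leaf and 38.7 in inflorescence replicate 2 alone, and RBCS1B likewise had 26.5 and 12.9 in apex replicates 2 and 5.2 in inflorescence replicate 2 alone. In both genes most of these islands were found in replicate 2 libraries.

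The 2 regions without an annotated gene were marked by H3K27me3 in the apices as well. The one at chr1:28870601-28871200 had densities of 47.1 to 55.7 in the apices, 0 in leaf and 0 and 10.9 in the inflorescence. The one at chr5:21925001-21925400 had 35.7 to 40.1 in the apices, 0 and 25.9 in leaf and 0 in both inflorescence libraries.

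At the level of whole gene bodies, H3K27me3 in the apices was tested against leaf and inflorescence together, over 8623 genes with the mark in both replicates of a stage. Of the 188 member genes 84 passed this filter, 51 through both groups of stages, 30 through the apices alone and 3 through leaf or inflorescence alone. The 30 could only be higher in the apices, so the count over the 84 is given without a verdict: 18 were higher and 1 lower (limma adjusted p under 0.05), against 5.68 and 4.67% of all genes tested. Of the 18, 14 had no island in either leaf library, and of these 9 had islands in both inflorescence libraries and 5 in neither. The count of higher members was 31 without inflorescence replicate 1 and 35 without inflorescence replicate 2, and 14 to 25 without each other library. The count over all genes tested moved too, from 317 to 1208 higher with 1 library left out. Fold changes are given only where no more than 1 library lacked the mark, because an island that was not called is not a measured 0. The same limit applies to the limma adjusted p of genes with 0 in both leaf libraries. Their equal leaf values add no spread, so that p depends on island calling and does not measure replicate variation in leaf.

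FLA9 and FLA13 encode fasciclin-like arabinogalactan proteins of the cell surface. FLA9 had 0 RPM of H3K27me3 in both leaf libraries, 126.4 to 137.2 in the apices and 149.7 and 116.0 in the inflorescence (limma adjusted p = 0.000981). FLA13 had 0 in leaf, 129.2 to 168.5 in the apices and 98.0 and 112.0 in the inflorescence (limma adjusted p = 0.000981). For FLA9 the inflorescence spanned the range of the apices, and for FLA13 both inflorescence libraries lay under every apex library.

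GT2, a trihelix transcription factor gene, and TDT, the vacuolar malate transporter, had the same order of stages as FLA13. GT2 had 0 in leaf, 219.1 to 227.5 in the apices and 117.4 and 166.8 in the inflorescence, and TDT 0, 236.3 to 247.8, and 129.3 and 194.8, so that both inflorescence libraries lay under every apex library (limma adjusted p = 0.000889 for each). RLP34, a receptor-like protein gene, had 33.3 to 60.6 RPM in the apices and 0 in the other 4 libraries, so it passed the filter through the apices alone and is given without a test. LEA14, a late embryogenesis abundant protein gene, had 0 in leaf, 69.2 to 126.5 in the apices and 67.1 and 48.3 in the inflorescence (limma adjusted p = 0.00281). UGT73C6, a flavonol glycosyltransferase gene, had 0, 69.2 to 94.5, and 52.3 and 82.6 (limma adjusted p = 0.00342), and ABCG12, a transporter of cuticular wax, 0, 30.5 to 43.2, and 32.3 and 47.2 (limma adjusted p = 0.0185, lost without any 1 of the 4 apex libraries).

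Among the called genes with the mark in all 8 libraries, HPL1 had 114.2 and 76.9 RPM in leaf, 130.1 to 172.8 in the apices and 27 and 32.8 in the inflorescence. Its apex libraries were above every other library (log2 fold change 1.48 ± 0.18, SE; limma adjusted p = 0.0062). UGT85A1, a cytokinin glycosyltransferase gene, had 85.3 and 44.9 in leaf, 273.8 to 379.8 in the apices and 182.6 and 346.5 in the inflorescence, which overlapped the apices (1.35 ± 0.29; limma adjusted p = 0.0452, and 0.0793 with the replicate block). EXPA5 had 75.5 and 72.1 in leaf, 119.3 to 131.2 in the apices and 98.8 and 122.3 in the inflorescence (0.47 ± 0.10; limma adjusted p = 0.0441, and 0.0647 with the block). UGT85A1 and EXPA5 each lost the call without each of 6 libraries. AT5G20110 had the mark in 7 libraries, since leaf replicate 2 had 3.6 RPM over only 2% of the body. With 2.64 ± 0.48, it also lost the call with the block (limma adjusted p = 0.0258, and 0.0539 with the block). It lost the call as well without each of 5 libraries, the 4 apex libraries and inflorescence replicate 1.

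The 1 gene called lower passed the filter through leaf and inflorescence alone, so it could only be lower in the apices. This gene, AT3G43580, had 68.5 and 75.6 RPM of H3K27me3 in leaf, 70.9 and 58.9 in the inflorescence and 0 in the 4 apex libraries. Its region, chr3:15502201-15502600, had islands of both marks in the 2 leaf libraries and of neither mark in the apices. With leaf replicate 1 or inflorescence replicate 1 left out 2 members were called lower, and with leaf replicate 2 or inflorescence replicate 2 left out 3. Over all genes tested, 276 to 624 were lower with 1 library left out.

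A run of 10 regions, with 11.2 kb in all, lay between positions 8769601 and 8836400 of chromosome 1, and no other 20 kb chain of regions had more than 2. The span holds LpxC2 and LpxC4, which encode a deacetylase of lipid A synthesis, and is a known array of near-identical tandem copies, so reads may be placed on any copy and each value here is uncertain. H3K4me3 at the region of LpxC2 had densities of 72.5 and 51.5 in leaf and 47.7 and 56.5 in the inflorescence. None of the 10 regions had H3K27me3 in any library.

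The control reads differed there between apices and wild type. Control reads per bp in the 20 apex H3K4me3 islands of the cluster were 0.143 to 0.25 of the library's median island (median 0.212), against 0.674 to 1.442 (median 1.104) in the 56 leaf and inflorescence islands. In the islands up to 40 kb outside the cluster the median was 1.008 in the apices and 0.987 in leaf and inflorescence. Input samples are listed only for apex t2 and inflorescence. At chr1:8767601-8768200 apex t0 and t2 had the same control reads, 37 in replicate 1 and 31 in replicate 2. At chr1:8767401-8768400 leaf and inflorescence replicate 1 both had 359. Control values of stages that share these reads are not independent, so the numbers of islands are not numbers of replicates. In each library 0.01 to 1.35% of all islands had control reads under 0.5 of the median island. By the rule no apex island covers the 10 regions, so the apex control was read in islands beside them and not on them. A difference in copy number between the plant lines was not tested, nor was the part of the lower control in the missing H3K4me3 islands. Of the 203 regions, 11 had such an apex island of low control within 2 kb, 6 of them in the cluster, and the others lay on AT1G62630, AT1G63860 (2 regions), AT3G18535 and RPS6, while 25 had no apex island of either mark within 2 kb to judge by. Without the cluster 193 regions remain and the H3K27me3 difference is 14.77 points (p = 0.0857, exact permutation test), and without the 11 regions 192 remain and it is 14.58 points (p = 0.0857, exact permutation test).

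**Figure D5:**
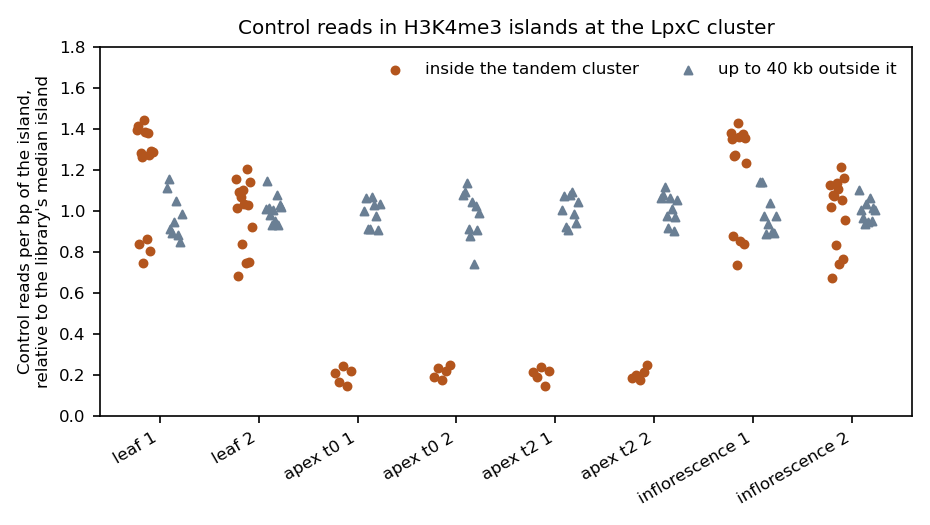
Control reads per bp of each H3K4me3 island, relative to the median island of its library (vertical axis), by library (horizontal axis), inside the LpxC cluster (circles) and up to 40 kb outside it (triangles); each point is 1 island. The apex circles sit at 0.143 to 0.25 and every other point is at 0.674 or more. Apex t0 and t2 share control reads within a replicate number, as do leaf and inflorescence, so these columns are not independent.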

How the data were processed

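ChIP-seq of H3K4me3 and H3K27me3 was analysed in 4 stages with 2 libraries each, 16 in all. The 6 input samples were not analysed here. The deposited tables list, per library, island position, ChIP and control read counts, p-value, fold over control and an adjusted p-value. Per the submitters' processing notes the build was TAIR10 and the tools included SICER 1.1 and bedtools 2.17.0-97 as well as BWA 0.6.2-r126, Picard 1.93, CASAVA 1.8.2 and SAMtools 0.1.19. SICER joins enriched windows into broad islands. Islands were called per library, and their settings are not given in the sources used here. The fold and p-value of an island are the authors' own and were used only within a library. Printed positions are 1-based.

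Genes came from a RefSeq table of assembly TAIR10.1, of which no coordinate is printed. A gene or region was marked where islands covered at least 200 bp. A gene's value is island reads times the island's share inside the gene, as RPM after trimmed-mean scaling (30% and 5% trimmed). Since islands were called separately in each library, this value moves with the length called. limma 3.58.1 (R 4.3.3, statmod 1.5.0) was fitted to log2(RPM + 1) of genes with the mark in the 2 replicates of any stage, with stage as the only term, two-sided, Benjamini-Hochberg threshold 0.05, and tested on simulated data. A sum of island parts is not a count of whole reads, so no count model was run. Shares of regions were compared with exact permutation over libraries (Python 3.11.15, numpy 2.4.6). Control density is read per bp of an island, relative to the library's median island.

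Per the labels' protocols, replicate numbers mark shared sonication, antibody lot, kit and sequencer, and replicate 2 pooled technical reactions, so numbers pair the libraries. Deviations of same-numbered libraries correlated at 0.231 to 0.445 for H3K4me3 and 0.155 to 0.448 for H3K27me3 over 6 pairs of stages each. The labels call the replicates biological.

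Named were the 8 longest regions with ties, the 8 genes with a symbol of highest mean island percentile (1 is not reported here), every listed gene with a region, up to 8 regions with H3K27me3 in all apex libraries and in no leaf or inflorescence library, up to 5 of those marked in all 8, up to 8 genes with a symbol called per contrast and direction, and up to 3 regions without an annotated gene. Regions, gene lists and rules were chosen with earlier results of these data known. No sequences are shown, since promoter and genome sequences were not used here. 1 island on the chloroplast genome was left out of the regions.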

Additional observations from a re-analysis of the deposited data

Results flagged for a closer look

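One signal lies outside the regions described. A single H3K4me3 island in inflorescence replicate 2 covered 154400 bp of the chloroplast genome, with 288494 ChIP reads, 307386 control reads and the authors' fold of 1.21. It was noticed because chloroplast DNA carries no histones and was not used in any comparison, and no other library of either mark had an island there.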

How the results depend on the processing

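The number of regions depended on the rule. From 203 it moved to 405, 129 and 51 with minimum lengths of 200, 600 and 1000 bp, to 123 and 99 with no apex island within 200 and 1000 bp, to 18 with islands of fold 3 or more, and to 140 with fold 2 or more. It was 212 to 367 with 1 library left out, highest without inflorescence replicate 2. The H3K27me3 difference kept its sign under each alternative run. It was 12.07 points with H3K27me3 islands of fold 2 or more (11.72 after subtracting the regions marked everywhere; exact permutation p = 0.0286 for both), 12.9 points with regions from 200 bp (p = 0.0286, exact permutation; 12.2 after the subtraction, p = 0.0571, exact permutation), 11.49 to 18.06 with 1 library left out, and 10.41 to 17.41 after the subtraction. Exact permutation p was under 0.05 there only without inflorescence replicate 2.

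For H3K27me3 in apices against leaf and inflorescence, with 490 genes higher and 403 lower, leaving out 1 library gave 317 to 1208 higher and 276 to 624 lower, with 14 to 35 and 1 to 3 of them members. For H3K4me3 in inflorescence against leaf, with 377 genes higher and 337 lower, it gave 61 to 1585 and 8 to 340, with 0 to 11 members lower. Members lower there, 7 as reported, were 11 of 317 genes lower with a pseudocount of 5, 11 of 459 with the replicate block, and 18 of 420 with islands of fold 2 or more, where 227 genes were higher. With leaf and inflorescence libraries alone limma called 0 genes higher, 0 lower and 0 members, with 737 genes higher and 963 lower at unadjusted p under 0.05. For the 26 called gene values, 284 alternatives kept the call and 83 lost it, and 0 reversed the sign. The block ended the calls of EXPA5, UGT85A1 and AT5G20110 and of no other named gene. Within replicate numbers the permutation p of the H3K27me3 difference was 0.0556. Causes were not tested. Island presence was not adjusted for depth, and 4 residual degrees of freedom limit every limma call.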
